A study of Canis lupus familiaris with 13 samples.

Results

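Biopsies of 3 canine mammary tumors taken 1 week after the second dose of IMAX were compared with biopsies of the same tumors taken at day 0, before any treatment. The libraries were chosen by tumor type and time, although earlier results of these data were known when the tumors and gene lists were chosen. Of the 13 libraries of the series, 6 took part, 1 per tumor and time. IMAX is a nanoparticle mixture injected into the tumor that carries paclitaxel, a drug that holds microtubules together, a cyclic dinucleotide that activates the cytosolic DNA sensor pathway protein STING, and a polymer of polyethyleneimine joined to the bile acid lithocholic acid that acts on Toll-like receptors. Dog CL, an intact female Shih Tzu, carried 2 of the tumors, a ductal carcinoma in a cranial gland (CL cranial) and a complex carcinoma in a caudal gland (CL caudal). Dog BM, a spayed female Great Pyrenees, carried a solid carcinoma in the left caudal gland. The second dose came some weeks after the first, and the interval and the injected volume differed between the dogs. The label 1 week therefore counts from the second dose, and more time had passed since day 0. All 3 tumors were injected with IMAX, so the day 0 biopsy of each tumor was its only control, no untreated dog was followed, and time, the earlier biopsy itself and treatment cannot be told apart. The soft tissue sarcoma of a further dog was left out of the comparison because its early biopsy is largely skin. RNA-seq counted reads from a whole biopsy, in which fewer cells of a type and less RNA per cell cannot be told apart.

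Activation of STING and of Toll-like receptors makes cells release type I interferon, which switches on antiviral genes in the cells around them, and it also makes blood vessel and immune cells release signals that draw leukocytes into tissue. Macrophages take up dead cells and injected particles, digest them in lysosomes and display peptides on MHC class II molecules, while cytotoxic T cells and natural killer (NK) cells kill target cells with perforin and granzymes. A mammary carcinoma holds luminal epithelial cells, which carry keratins and the adhesion molecule EPCAM, basal or myoepithelial cells, fibroblasts, vessels and leukocytes, and the amount of each in a biopsy sets much of what RNA-seq reads from it.

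Total counts on genes ranged from 16259854 to 27707651 at day 0 and from 19080209 to 27611423 at 1 week. The day 0 library of CL caudal stood apart from the other 5 libraries. Its 22 epithelial markers summed to 357 CPM (counts scaled to a common library size), against 963 to 7711 CPM in the others, although none of these markers was at 0 in all libraries of either time. Ribosomal protein genes took 13.1% of its counts, against 4.89% to 7.29% in the others. Its genes in gene-dense stretches of the genome were lower than those in gene-sparse stretches by 1.32 on the log2 scale, relative to the mean of the 9 mammary libraries, where the other 5 libraries lay between -0.02 and 0.82. For all genes and each gene list, counts of genes at least doubled or halved were therefore also made for CL cranial and BM alone, and with offsets. The offsets remove the dependence on gene length and local gene density from each library. These further counts are given below for some of the lists, and counts of levels without overlap were not remade.

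No single gene passed the test across the 3 tumors. By number of members at least doubled in all 3, the leading lists were interferon-stimulated genes (13 of 36), macrophages (12 of 22) and complement (10 of 21). NK and cytotoxic cell markers and endothelial markers had 7 of 15 each, beside 2.73% of all genes. With the offsets these lists, in that order, had 10, 9, 5, 3 and 4. Of 19975 genes tested with edgeR's quasi-likelihood test with the tumor as a block, 0 (0% of those tested) had a Benjamini-Hochberg adjusted p under 0.05, and the smallest adjusted p was 0.514. At an unadjusted p under 0.05, 1002 genes (5.02%) were higher and 299 genes (1.5%) were lower at 1 week, so that 77.0% were higher. This share was 57.4% with the offsets (758 higher and 562 lower) and 59.3% without BM (957 and 658). DESeq2, run on the same counts, placed 212 genes (1.06%) higher and 19 genes (0.0951%) lower at its adjusted threshold. The words higher and lower below therefore give a direction and size in these libraries, not a call.

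To see which genes moved alike in every tumor, the change of each gene was taken within each tumor as the difference in log2 CPM. At least a doubling in all 3 tumors was seen for 545 genes (2.73%), and at least a halving in all 3 for 83 genes (0.416%), so that 86.8% of the genes that moved alike were higher. With the offsets these counts were 332 (1.66%) and 154 (0.771%), of which 68.3% were higher. The offsets moved the median change of all genes from 0.01, 0.10 and -0.02 to -0.16, -0.13 and -0.03 in CL cranial, CL caudal and BM. In CL cranial and BM alone, 1324 genes (6.63%) were at least doubled in both and 510 (2.55%) at least halved in both, counts that are higher because fewer tumors have to meet the condition. Of the 545 genes, 324 had all 3 of their 1-week levels above all 3 day 0 levels, as did 1126 of all genes (5.64%). Of the 83 lower genes, 40 had all 1-week levels below, as did 759 of all genes (3.8%). The 545 and 83 genes were chosen by their change in the same libraries. That choice favors levels without overlap, so these shares are not a further result. Among protein-coding genes, 482 of 15654 (3.08%) were at least doubled in all 3 tumors, and among long noncoding RNA genes 52 of 3770 (1.38%).

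The overall pattern of change differed from tumor to tumor. Across the 19975 genes, which are not independent of each other, the changes of CL cranial and BM had a Pearson r of 0.21, those of the 2 tumors of dog CL a Pearson r of 0.06, and those of CL caudal and BM a Pearson r of 0.02. At least a doubling was seen for 3196 genes and at least a halving for 1455 in CL cranial. The counts for CL caudal were 5900 and 3706, and those for BM 3840 and 3706. CL caudal thus had the most genes at least doubled.

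**Figure D1:**
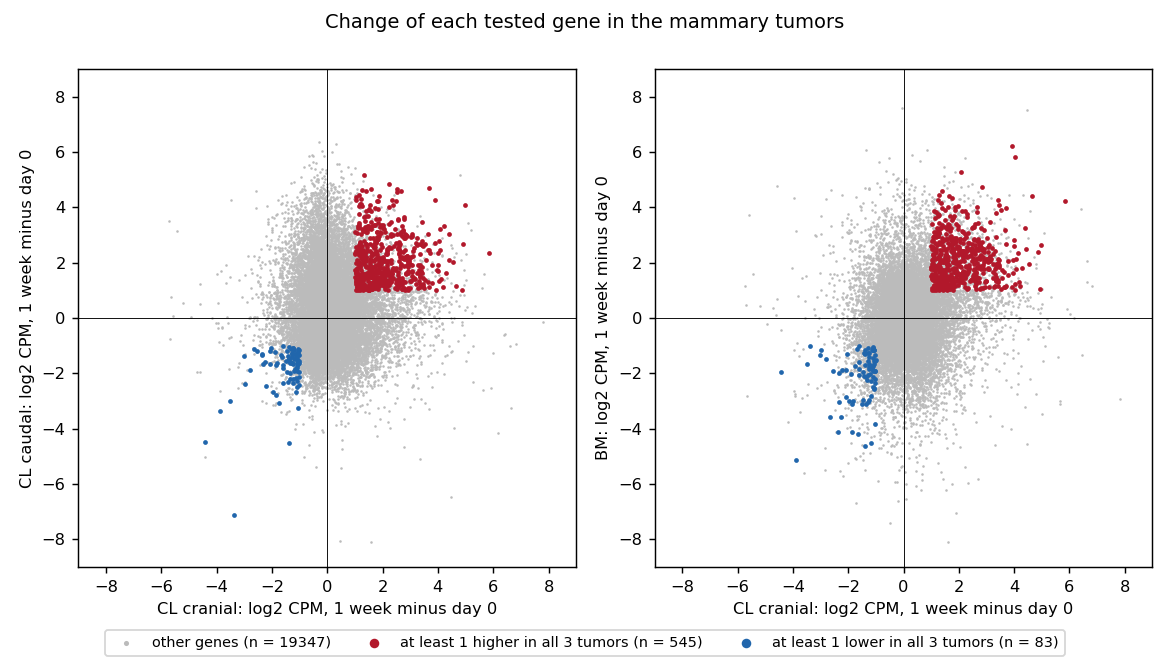
Change of each of 19975 genes from day 0 to 1 week, as log2 CPM, in CL cranial (x axes) against CL caudal (left) and BM (right), 1 point per gene. Red points are the 545 genes at least doubled and blue points the 83 genes at least halved in all 3 tumors, and the gray cloud is widest along the CL caudal axis in the left panel.

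Of the 12 higher genes with the smallest p-values among those that moved alike, CD163 and SIGLEC1 are on the macrophage list and OASL and MX1 on the interferon list, and TGM2 had the smallest p-value. CD163, the scavenger receptor for hemoglobin bound to haptoglobin, stood at 40.9, 65.2 and 24.4 CPM at day 0 in CL cranial, CL caudal and BM, and at 416, 238 and 343 CPM at 1 week. The lowest 1-week level was above the highest day 0 level, and the fitted log2 fold change was 3.002 ± 0.50 (SE, n = 3 tumors). CD209, a lectin of dendritic cells and macrophages, went from 14.9, 8.31 and 9.95 CPM to 225, 54.4 and 747 CPM, a log2 fold change of 4.29 ± 0.70. CD5L, which tissue macrophages secrete, went from 3.22, 2.90 and 3.25 CPM to 189, 15.2 and 62.5 CPM, a log2 fold change of 4.39 ± 0.75. Day 0 levels of CD5L were close to each other, while its 1-week levels were spread widely, with CL cranial highest. STAB1, a scavenger receptor of macrophages and some endothelial cells, was 25.4, 12.7 and 24.7 CPM at day 0 and 126, 98.7 and 333 CPM at 1 week (log2 fold change 2.95 ± 0.47). SIGLEC1, a macrophage lectin that binds sialic acid, was 9.44, 13.2 and 2.84 CPM at day 0 and 103, 48.2 and 56.8 CPM at 1 week (log2 fold change 3.18 ± 0.55). The adjusted p of each of these 5 genes was 0.514 in edgeR's test.

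The other leading genes encode enzymes, signaling proteins and a checkpoint. TGM2, the cross-linking enzyme transglutaminase 2, went from 3.67, 1.32 and 20.7 CPM to 80.0, 11.5 and 199 CPM in CL cranial, CL caudal and BM, a log2 fold change of 3.69 ± 0.54. Its groups overlapped, since the day 0 level of BM was above the 1-week level of CL caudal, although the level was higher within each tumor. UPP1, a uridine phosphorylase, went from 30.9, 32.5 and 45.1 CPM to 262, 102 and 280 CPM. RAC2, a small GTPase of blood cells, went from 8.37, 1.51 and 11.7 CPM to 69.5, 12.1 and 61.0 CPM, where the lowest 1-week value only just cleared the highest day 0 value. ADA, which deaminates adenosine, went from 16.2, 6.04 and 16.6 CPM to 71.9, 19.6 and 109 CPM, a log2 fold change of 2.19 ± 0.39. VSIR, which encodes the immune checkpoint VISTA, had nearly the same change in each tumor, at 2.40, 2.59 and 2.49 on the log2 scale.

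Genes at least quadrupled in every tumor numbered 54, against 1 gene lower by as much in every tumor. Several of the 54, named here after their values were seen, are also myeloid. MARCO, a scavenger receptor of macrophages, went from 0.715, 0.252 and 1.52 CPM to 25.2, 5.71 and 9.88 CPM. SPI1, the transcription factor that directs myeloid development, was higher by 2.57, 2.52 and 2.43 in CL cranial, CL caudal and BM on the log2 scale, a spread of less than 0.2 among tumors. BPI, a protein that binds bacterial lipopolysaccharide, was one of the more abundant, with 87.0, 29.5 and 43.3 CPM at day 0 and 503, 244 and 426 CPM at 1 week. UCP2, a mitochondrial carrier, was higher by 2.51, 4.67 and 3.30.

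**Figure D2:**
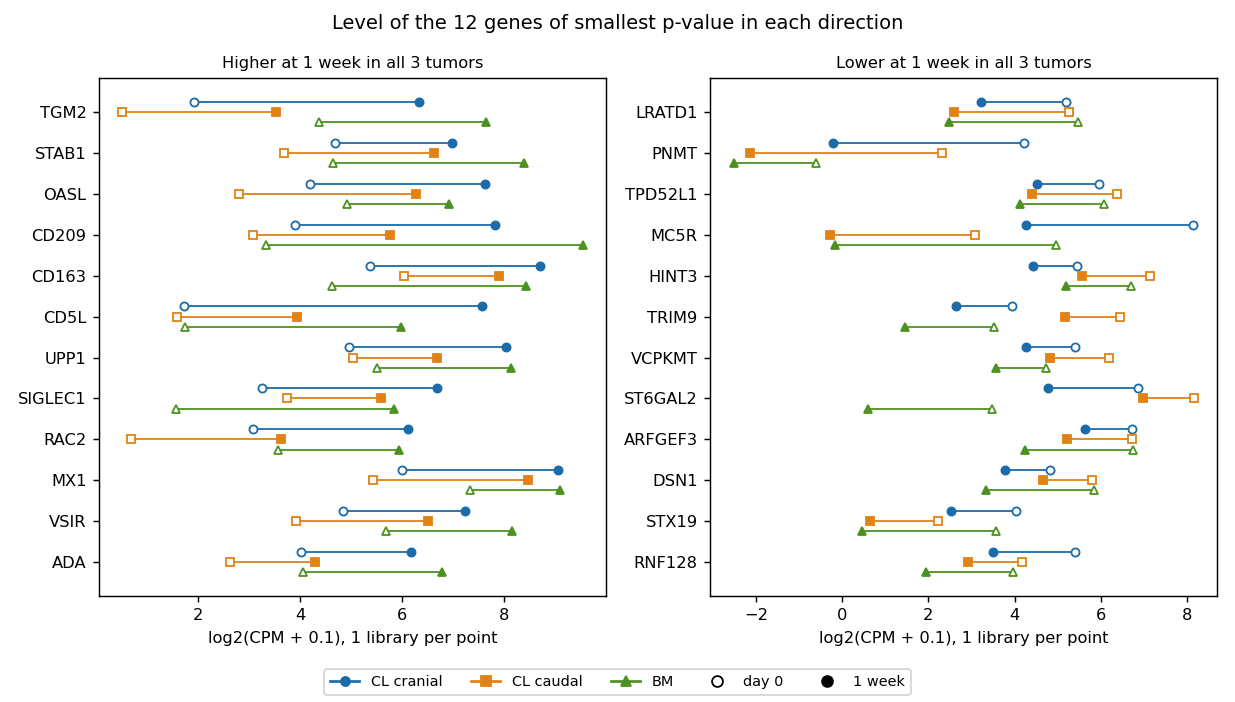
Level as log2(CPM + 0.1) of the 12 genes of smallest p-value in each direction among those that moved alike in all 3 tumors, with an open symbol for day 0 and a filled symbol for 1 week, joined within each tumor, 1 library per symbol. STAB1, CD163 and CD5L have every filled symbol to the right of every open one, as LRATD1 and TPD52L1 have every filled symbol to the left, while TGM2 and MC5R overlap between times.

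Among the most abundant genes that moved alike, secreted and antigen-presenting proteins were higher. CLU, the extracellular chaperone clusterin, had the highest mean level of them and stood at 2951, 2798 and 1784 CPM at day 0 and at 8253, 7788 and 5515 CPM at 1 week in CL cranial, CL caudal and BM. The change of CLU was 1.48, 1.48 and 1.63, and its 1-week levels lay above all its day 0 levels. FN1, the matrix protein fibronectin, was higher by 1.52, 1.77 and 1.29. CTSB, the lysosomal protease cathepsin B, was higher by 2.34, 1.43 and 1.64. CD74, the chain that guides MHC class II molecules, and DLA88, an MHC class I heavy chain gene of the dog, are described with antigen presentation below.

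The macrophage markers as a list were higher in each tumor. Of 22 macrophage markers tested, 12 were at least doubled in all 3 tumors, 15 were above 0 in all 3, and 16 had an unadjusted p under 0.05 in the higher direction, with none lower, while the shares over all genes were 2.73%, 15.5% and 5.02%. The list had a median of 2.30, 1.18 and 2.83 for CL cranial, CL caudal and BM, beside medians of 0.01, 0.10 and -0.02 over all genes. For CL cranial and BM taken alone, all 22 markers were at least doubled in both, and with the offsets 9 were at least doubled in all 3 tumors. Their summed level was 1038, 1074 and 586 CPM at day 0 and 4593, 2107 and 4439 CPM at 1 week. FCER1G, the signaling chain of Fc receptors, was among the most even of them, with changes of 2.57, 2.48 and 2.83. With the offsets its changes were less even, at 2.54, 1.44 and 2.38.

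Lysosomal genes were higher with smaller changes. Of 31 genes for lysosome and phagocyte digestion, 7 were at least doubled in all 3 tumors and 8 had an unadjusted p under 0.05, all higher, and the list medians were 1.01, 1.02 and 1.07 in CL cranial, CL caudal and BM. With the offsets 4 were at least doubled in all 3 tumors and the CL caudal median was 0.25, and without CL caudal 8 were at least doubled in both other tumors. LGMN, the lysosomal protease legumain, went from 134, 51.0 and 148 CPM to 391, 198 and 492 CPM, with no overlap between times. GPNMB, a glycoprotein of lipid-laden macrophages, went from 40.8, 62.9 and 45.1 CPM to 1189.7, 127 and 235 CPM, so that CL cranial was far above the other tumors at 1 week.

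Interferon-stimulated antiviral genes were higher across the list. Of 36 genes tested, 13 were at least doubled in all 3 tumors, 28 were above 0 in all 3 and 26 had an unadjusted p under 0.05, all higher, and every one of the 36 had a fitted change above 0. Medians were 2.32, 0.91 and 1.25 for CL cranial, CL caudal and BM. Without CL caudal, 22 of 36 were at least doubled in both other tumors, and with the offsets 10 of 36 were at least doubled in all 3. OASL, an interferon-induced antiviral protein, went from 18.3, 6.86 and 30.3 CPM to 197, 76.7 and 120.1 CPM, a log2 fold change of 2.96 ± 0.47 with no overlap. MX1, a dynamin-like antiviral GTPase, went from 63.8, 43.0 and 162 CPM to 533, 352 and 547 CPM, a log2 fold change of 2.64 ± 0.47, and its neighbor on chromosome 31, MX2, went from 19.2, 15.5 and 50.3 CPM to 196, 58.4 and 181 CPM. Of the 36 genes, 21 had all 1-week levels above all day 0 levels, beside 5.64% of all genes. That count was not remade with the offsets or without CL caudal. In CL caudal 8 of the 36 genes were below 0, and all 36 were above 0 in both other tumors. One of the 8 was ISG15, a ubiquitin-like protein named here after its values were seen, at 45.7, 443 and 86.0 CPM at day 0 and 356, 212 and 206 CPM at 1 week.

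Genes of lytic cell death had list medians above 0 in all 3 tumors, at 1.28, 0.38 and 0.73. Of 16 genes of lytic death and the inflammasome, 2 were at least doubled in all 3 tumors, beside 2.73% of all genes. An unadjusted p under 0.05 in the higher direction was seen for 5, beside 5.02% of all genes, and all 16 had a fitted change above 0. With the offsets 1 of the 16 was at least doubled in all 3. ZBP1, a sensor of nucleic acids that can start necroptosis and a member of the interferon list too, went from 14.1, 3.21 and 24.6 CPM to 151, 20.5 and 107 CPM. GSDMD, the pore-forming gasdermin D, went from 46.9, 15.3 and 59.4 CPM to 94.9, 85.2 and 107 CPM, with no overlap. NF-kB target inflammatory genes had none of 25 at least doubled in all 3 tumors, and medians of 1.63, 0.26 and 0.37. Of the 25, 6 had an unadjusted p under 0.05, all higher. CCL2, the chemokine that attracts monocytes, was higher in each tumor but unevenly, by 2.59, 1.07 and 0.59.

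Complement genes were higher in CL cranial and BM, and divided in CL caudal. Of 21 complement genes, 10 were at least doubled in all 3 tumors, 11 were above 0 in all 3 and 12 had an unadjusted p under 0.05, all higher. Medians were 1.48, 0.07 and 2.80 for CL cranial, CL caudal and BM, and 5 were at least doubled in all 3 with the offsets, while 16 were in CL cranial and BM alone. C5AR1, the receptor for the anaphylatoxin C5a on myeloid cells, went from 3.42, 4.47 and 6.15 CPM to 56.5, 14.7 and 43.5 CPM. C1R, a protease of the first complement component, went from 116, 39.8 and 147 CPM to 464, 119.8 and 883 CPM. The CL caudal 1-week level of C1R lay inside the day 0 range, and its change there was 0.15 with the offsets. CFP, which encodes properdin, was higher by 2.15, 1.81 and 3.10.

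T cell and cytotoxic genes were higher in each tumor from low levels. Of 21 T cell markers, 7 were at least doubled in all 3 tumors, 17 were above 0 in all 3 and 11 had an unadjusted p under 0.05, all higher, with medians of 3.29, 1.35 and 1.16 for CL cranial, CL caudal and BM. With the offsets 3 were at least doubled in all 3 and the CL caudal median was 0.74, and without CL caudal 11 were at least doubled in both other tumors. The summed level of the T cell markers went from 101, 61.8 and 165 CPM to 817, 179 and 237 CPM. CD3E, a chain of the T cell receptor complex, went from 4.85, 0.692 and 6.73 CPM to 46.5, 4.81 and 21.6 CPM, so that its change was 3.24, 2.64 and 1.67. IL7R, the receptor for interleukin 7, went from 5.36, 15.4 and 7.40 CPM to 106, 47.1 and 26.3 CPM, with all 1-week levels above those of day 0. The largest changes of both were in CL cranial.

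Of 15 markers of NK and cytotoxic cells, 7 were at least doubled in all 3 tumors and 11 had an unadjusted p under 0.05, all higher, with medians of 3.45, 1.42 and 2.14. The offsets brought the CL caudal median to 0.23 and the number at least doubled in all 3 to 3, and without CL caudal 13 were at least doubled in both other tumors. GZMB, the protease granzyme B, went from 1.79, 1.20 and 2.02 CPM to 30.1, 4.76 and 12.6 CPM, a log2 fold change of 2.92 ± 0.62. PRF1, the pore-forming perforin, went from 0.204, 0.0629 and 0.556 CPM to 4.89, 0.773 and 2.77 CPM. Both genes had all 1-week levels above all day 0 levels, and both rested on few reads at day 0, where the lowest PRF1 count was 1 read. B cell markers had 4 of 12 at least doubled in all 3 tumors, and 2 of 12 with the offsets. CD79A, a chain of the B cell receptor, was higher by 2.83, 2.46 and 2.45, and by 2.79, 1.51 and 1.98 with the offsets. CD37, a leukocyte tetraspanin, was higher by 1.66 in CL caudal, and by 0.17 there with the offsets. Plasma cell markers had 0 of 12 at least doubled in all 3, and medians of 0.42, 0.10 and 1.77.

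Antigen presentation was higher in CL cranial and BM. Of 16 MHC class I presentation genes, 4 were at least doubled in all 3 tumors and 6 had an unadjusted p under 0.05, with medians of 1.61, 0.11 and 1.31. With the offsets the CL caudal median was -0.51 and 1 gene was at least doubled in all 3. DLA88 went from 510, 249 and 620 CPM to 1968, 591 and 1977 CPM, and with the offsets its change in CL caudal was 0.07. NLRC5, the transactivator of MHC class I genes, was higher by 3.34, 2.67 and 1.36. Reads of DLA88 and of its relative DLA-64, which was higher by 2.04, 1.48 and 1.57, may be split between near-identical genes, so their levels are uncertain.

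MHC class II presentation had different directions in the tumors. Of 10 genes tested, 2 were at least doubled in all 3 tumors, and the medians were 1.40, -0.83 and 2.32 for CL cranial, CL caudal and BM, the CL caudal median falling to -2.01 with the offsets. CD74 went from 1179, 81.5 and 708 CPM to 3027, 792 and 3530.4 CPM. CIITA, the transactivator of MHC class II genes, went from 13.2, 2.96 and 16.7 CPM to 51.3, 13.5 and 43.6 CPM. CTSS, the protease that trims the invariant chain, was higher by 2.54 and 2.38 in CL cranial and BM and lower by 0.77 in CL caudal, where it had stood at 532 CPM at day 0.

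Checkpoint and chemokine genes moved most in CL cranial. Of 25 immune checkpoint genes, 3 were at least doubled in all 3 tumors and 6 had an unadjusted p under 0.05, all higher, with medians of 2.27, 0.37 and 0.62. LGALS9, the lectin galectin-9, went from 58.3, 23.6 and 93.7 CPM to 292, 137 and 300.3 CPM, with no overlap between times. PDCD1LG2, which encodes the PD-1 ligand PD-L2, was higher by 3.87 and 2.40 in CL cranial and BM and by 0.08 in CL caudal. Among 22 chemokine genes the medians were 2.79, -0.20 and 0.48, with 1 gene at least doubled and 1 at least halved in all 3. CCL21, which guides lymphocytes and dendritic cells along lymphatic vessels, was higher by 4.31 and 4.45 in CL cranial and BM and lower by 1.33 in CL caudal, where it stood near 1 CPM.

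**Figure D3:**
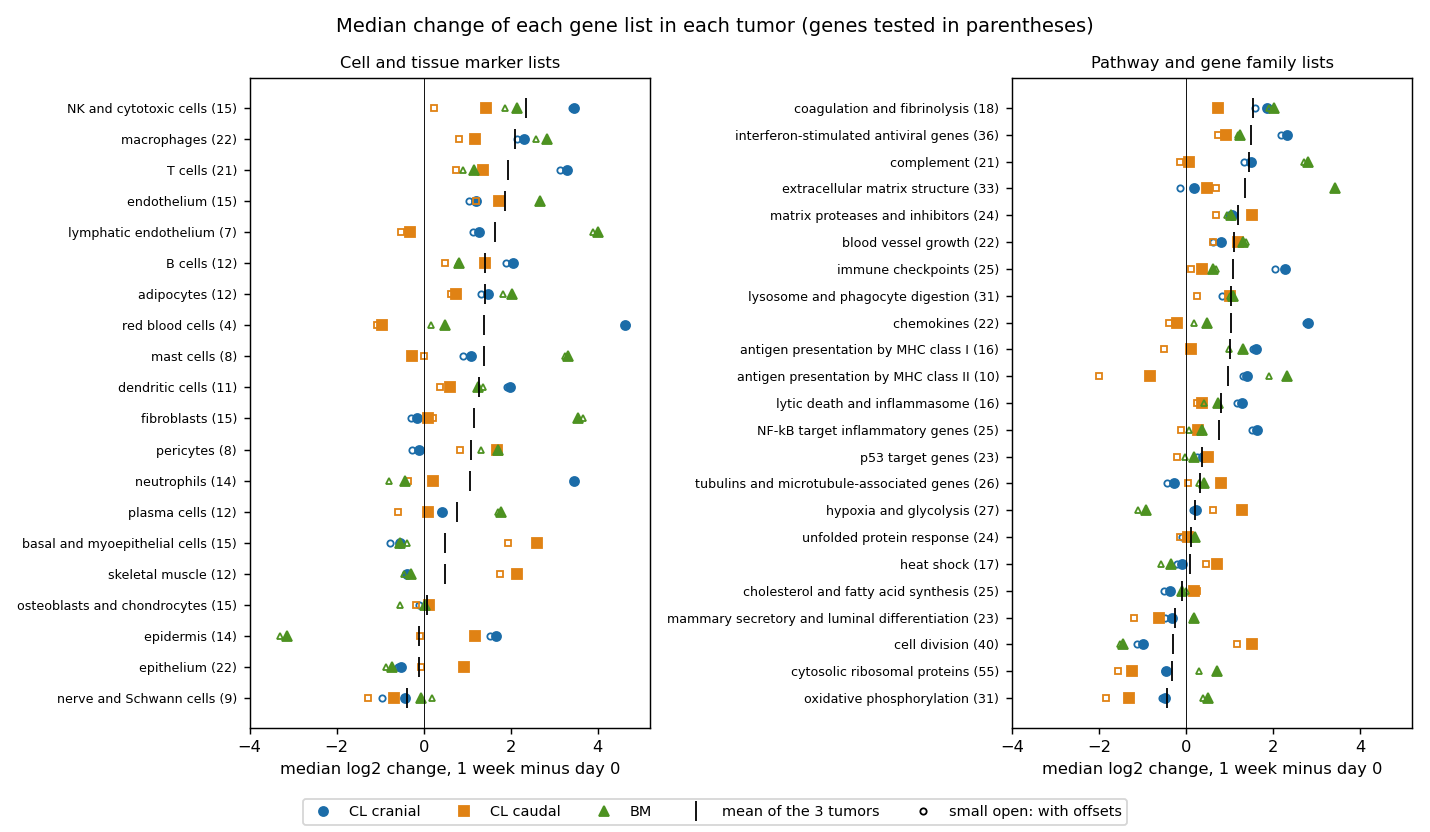
Median log2 change from day 0 to 1 week of 20 marker lists (left) and 23 pathway and family lists (right) in each tumor, filled symbols for TMM-scaled counts, small open symbols with the offsets, and a vertical tick at the mean of the 3 tumor medians. NK and cytotoxic cells, macrophages, T cells and endothelium have all 3 filled symbols above 1, and cell division is above 0 in CL caudal and below 0 in the other tumors.

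Endothelial markers as a list were higher in all 3 tumors, and most in BM. Of 15 endothelial markers, 7 were at least doubled in all 3, 13 were above 0 in all 3 and 12 had an unadjusted p under 0.05, all higher, with medians of 1.20, 1.74 and 2.68. With the offsets 4 were at least doubled in all 3 and the CL caudal median was 1.21, and without CL caudal 9 were at least doubled in both other tumors. Their summed level was 213, 72.7 and 334 CPM at day 0 and 610.0, 219 and 2122 CPM at 1 week. VWF, the clotting factor stored in endothelial cells, went from 23.1, 7.43 and 42.8 CPM to 144, 26.2 and 689 CPM. PECAM1, an adhesion molecule of endothelial junctions, went from 47.9, 15.4 and 58.9 CPM to 150.5, 46.3 and 609 CPM. None of the 15 markers separated the times completely. For VWF and PECAM1 the day 0 level of BM was above the 1-week level of CL caudal.

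Coagulation and vessel growth genes had list medians above 0 in all 3 tumors, and VWF is on the coagulation list too. Of 18 coagulation and fibrinolysis genes, 4 were at least doubled in all 3 tumors and 7 had an unadjusted p under 0.05, all higher, with medians of 1.87, 0.74 and 2.02. PLAT, the tissue plasminogen activator, was higher by 2.31, 1.99 and 2.19. Of 22 blood vessel growth genes, 5 were at least doubled in all 3 both with and without the offsets, among them ENG, the coreceptor endoglin, at 1.55, 2.42 and 2.29. Medians of this list were 0.80, 1.20 and 1.32, with 14, 18 and 14 of the 22 above 0 in CL cranial, CL caudal and BM. Its summed level rose in the CL tumors, from 707 and 583 to 1158 and 1125 CPM. In BM it fell from 2127 to 1133 CPM. Lymphatic endothelial markers were higher in CL cranial and BM, with medians of 1.27 and 3.99, and the median was -0.33 in CL caudal. MMRN1, a lymphatic endothelial protein, went from 4.85, 3.34 and 25.9 CPM to 68.7, 0.515 and 565 CPM.

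The list of matrix genes had a larger median change in BM than in the tumors of dog CL, a difference that was not tested for the list. The median change of 33 structural matrix genes was 0.18, 0.47 and 3.41 for CL cranial, CL caudal and BM, and that of 15 fibroblast markers was -0.17, 0.11 and 3.55. The summed level of the fibroblast markers went from 2018 to 32661 CPM in BM and from 18147 to 11182 CPM in CL cranial. Of the 33 matrix genes, 3 were at least doubled in all 3 tumors with and without the offsets, and 2 had an unadjusted p under 0.05 in the higher direction, beside 2.73% and 5.02% of all genes. ELN, the elastic fiber protein elastin, was higher in each, from 21.4, 4.09 and 14.0 CPM to 72.0, 27.3 and 284 CPM. TIMP1, an inhibitor of matrix proteases, went from 49.9, 15.04 and 46.2 CPM to 155, 113 and 982 CPM, with no overlap between times.

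Genes lower in all 3 tumors were fewer, and the leading ones were not those of the immune lists. LRATD1 went from 36.2, 38.1 and 44.2 CPM to 9.14, 5.92 and 5.50 CPM, a log2 fold change of -2.54 ± 0.45 (SE, n = 3 tumors, adjusted p 0.514 in edgeR's test) with no overlap between times. TPD52L1, of the tumor protein D52 family, also separated the times, going from 62.1, 82.8 and 66.5 CPM to 22.6, 21.1 and 17.3 CPM. PNMT, the enzyme that makes epinephrine, went from 18.4, 4.85 and 0.556 CPM to 0.765, 0.129 and 0.0748 CPM. The 1-week level of PNMT in BM rests on 2 reads. MC5R, a melanocortin receptor of exocrine glands, was the 1 gene at least quartered in every tumor, going from 279.5, 8.31 and 31.1 CPM to 19.0, 0.730 and 0.786 CPM, a log2 fold change of -4.45 ± 1.08.

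The abundant genes that were lower in each tumor included epithelial ones. TRPS1, a transcription factor of mammary epithelium, went from 804, 2965 and 622 CPM to 332, 1105 and 209.8 CPM, with changes of -1.28, -1.42 and -1.57. EPCAM, the adhesion molecule of epithelial cells, went from 388, 51.9 and 484 CPM to 179, 13.7 and 129 CPM, and its groups overlapped because CL caudal was low at both times. CXADR, a junction protein, was lower by 1.08, 1.64 and 1.67, and CLDN1, the tight junction protein claudin 1, named after its values were seen, went from 254, 228 and 254 CPM to 84.2, 44.2 and 83.5 CPM with no overlap. ABCC11, a transporter of apocrine glands, and ID4, an inhibitor of transcription factors, were lower in each tumor by 1.24 to 2.11.

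As a list, epithelial markers were not lower in all tumors. Of 22 epithelial markers, 2 were at least halved in all 3 tumors, 7 were below 0 in all 3 and 1 had an unadjusted p under 0.05, beside 0.416%, 13.2% and 1.5% of all genes. Medians were -0.51, 0.93 and -0.74 for CL cranial, CL caudal and BM, and the CL caudal median was -0.06 with the offsets. The summed level went from 7711 to 5022 CPM in CL cranial and from 357 to 963 CPM in CL caudal, while BM went from 5522 to 2840 CPM. KRT8, a luminal keratin named after its values were seen, went from 2083 to 959.6 CPM in CL cranial and from 30.2 to 472 CPM in CL caudal, while BM went from 979 to 696 CPM. Basal and myoepithelial markers had medians of -0.55, 2.59 and -0.54, so CL caudal again moved against the other tumors. The part of the epithelial content of each biopsy in the changes of other genes was not tested.

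Milk and luminal differentiation genes were mixed, with 0 of 23 at least doubled or halved in all 3 tumors and medians of -0.32, -0.61 and 0.18. LALBA, the milk protein alpha-lactalbumin, went from 51.4 to 13.2 CPM in CL cranial and from 1.13 to 0.0429 CPM in CL caudal, and in BM 1 read was counted at day 0 and 0 at 1 week. FOXA1, a luminal transcription factor, was lower by 0.83, 2.35 and 1.44.

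Cell division genes, of interest because paclitaxel arrests dividing cells, were lower in 2 tumors and higher in CL caudal. Medians over 40 genes were -0.98, 1.51 and -1.45 for CL cranial, CL caudal and BM, and none of the genes was at least doubled or halved in all 3. In CL cranial and BM alone, 15 of 40 were at least halved in both and 0 at least doubled. MKI67, which encodes the proliferation marker Ki-67 and is named after its values were seen, went from 57.6 to 31.2 CPM in CL cranial and from 2.71 to 23.1 CPM in CL caudal, while BM went from 69.7 to 26.8 CPM. The level of MKI67 in CL caudal at day 0 was thus the lowest of the 6, and its 3 levels at 1 week lay close together. The 3 genes of the list with the smallest p-values were lower in every tumor. Of all 40 genes only 5 were, beside 13.2% of all genes tested, and 34 of the 40 were above 0 in CL caudal. CENPE, a kinetochore motor protein, was lower by 1.65, 0.19 and 2.12 in CL cranial, CL caudal and BM. CDK1, the kinase that drives mitosis, was lower by 1.53, 0.32 and 1.93, and PCNA, the clamp of DNA replication, by 1.06, 0.39 and 1.40. All 3 of these genes had every 1-week level below every day 0 level, as did 5 of the 40 and 3.8% of all genes tested. Choosing them by p-value favors such levels.

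Tubulin genes, whose products paclitaxel binds, did not move together. Of 26 tubulin and microtubule genes, 0 were at least doubled or halved in all 3 tumors, 1 had an unadjusted p under 0.05, and the medians were -0.27, 0.79 and 0.42. That gene was TUBB3, a beta tubulin of neurons and some carcinomas, at 9.44, 10.3 and 1.29 CPM at day 0 and 10.5, 58.6 and 27.3 CPM at 1 week. Among 23 p53 target genes, 4 had an unadjusted p under 0.05, all higher, with list medians of 0.39, 0.50 and 0.18. CDKN1A, the cell cycle inhibitor p21, was higher by 2.27 and 2.75 in CL cranial and CL caudal, and in BM its change was -0.03.

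The stress, respiratory, ribosomal and glycolysis lists had no gene at least doubled or halved in all 3 tumors. Medians of 24 unfolded protein response genes were 0.06, 0.06 and 0.21, and those of 17 heat shock genes -0.10, 0.72 and -0.34. Oxidative phosphorylation genes had medians of -0.48, -1.32 and 0.50 over 31 genes, and cytosolic ribosomal protein genes -0.45, -1.24 and 0.71 over 55 genes. In 27 hypoxia and glycolysis genes the medians were 0.23, 1.28 and -0.91. Cholesterol and fatty acid synthesis genes had medians near 0, at -0.36, 0.18 and -0.08.

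**Figure D4:**
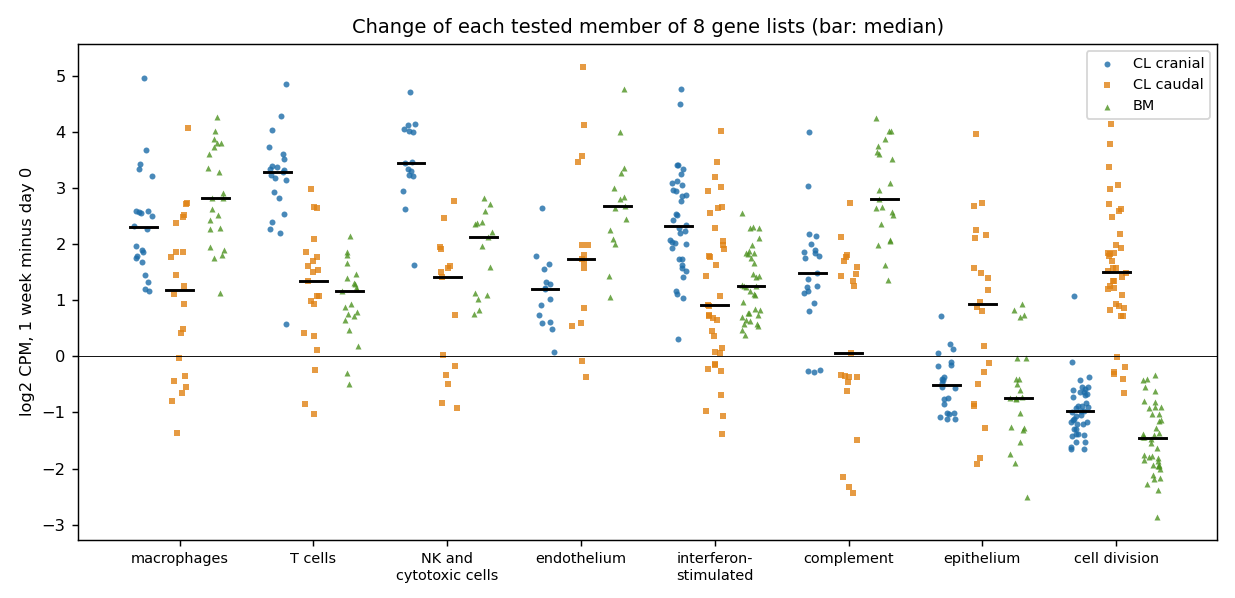
Change from day 0 to 1 week, as log2 CPM, of every tested member of 8 gene lists in each tumor, 1 point per gene, with a bar at the median. All 22 macrophage markers are above 1 in CL cranial and in BM, and the cell division genes have a median of 1.51 in CL caudal beside -0.98 and -1.45 in the other tumors.

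Other cells that a biopsy can hold were checked by their markers. Neutrophil markers had medians of 3.45, 0.22 and -0.44 for CL cranial, CL caudal and BM. Their summed level went from 5303, 1926 and 956 CPM to 6643, 532 and 1295 CPM, so in CL caudal and BM it moved against the median. Dendritic cell markers had 1 of 11 at least doubled in all 3 tumors and medians of 1.97, 0.60 and 1.24, and mast cell markers had medians of 1.08, -0.27 and 3.31. Epidermal markers moved by 1.66, 1.17 and -3.15, and their summed level in BM went from 264 to 38.8 CPM. Adipocyte markers had medians of 1.48, 0.73 and 2.03. Their summed level in BM went from 363 to 3409 CPM, mostly through CFD, which is also on the complement list, and from 154 to 269 CPM without it. Red blood cell markers summed to 4.98 CPM at day 0 and 79.7 CPM at 1 week in CL cranial and stayed under 5 CPM in the other tumors. Skeletal muscle markers had medians of -0.38, 2.14 and -0.29, pericyte markers -0.11, 1.69 and 1.71, nerve and Schwann cell markers -0.42, -0.69 and -0.06, and bone and cartilage markers 0.08, 0.11 and 0.02. The part of these tissues in the changes of the other lists was not tested.

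Whether the dogs differed in their change was tested as the difference between the change in BM and the mean change in the 2 CL tumors. No gene (0% of 19975) had an adjusted p under 0.05 in edgeR's test, where the smallest adjusted p was 0.469, and 1461 genes (7.31%) had an unadjusted p under 0.05 in either direction. DESeq2 placed 261 genes past its threshold. With 1 tumor of BM, the difference between dogs cannot be told apart from a difference between tumors, and both CL tumors come from 1 animal.

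The genes with the smallest p-values for that difference moved in opposite directions. ZBTB16, a zinc finger transcription factor induced by glucocorticoids, went from 94.3 and 331 CPM to 20.02 and 83.4 CPM in CL cranial and CL caudal and from 9.60 to 107 CPM in BM. S100B, a calcium-binding protein of glial and other cells, went from 53.2 and 36.1 CPM to 6.67 and 7.25 CPM in the CL tumors and from 0.0878 to 2.24 CPM in BM. COL11A2, a cartilage collagen, went from 2.14 and 9.25 CPM to 9.01 and 96.0 CPM in the CL tumors and from 67.3 to 2.54 CPM in BM. DSG1, an epidermal desmosomal cadherin, went from 25.6 CPM to 0 in BM, while in the CL tumors it was below 3 CPM at both times.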

How the data were processed

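RNA of each biopsy was sequenced as 1 strand-specific library, and the 6 mammary libraries of day 0 and 1 week are compared here. Strand NGS was the authors' aligner and CanFam4.0 their genome, and the deposited values are raw counts of reads on 43427 gene symbols, not normalized. The submitters' processing notes also name edgeR with TMM. The release of the annotation, the rule for counting and what was done with reads mapping to several genes are not given in the sources used here, so paralogs and overlapping genes are uncertain. Of the symbols, 98.0% matched RefSeq's UU_Cfam_GSD_1.0, which supplied biotypes, lengths and positions.

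Libraries were paired by tumor. Deviations from the mean of each time correlated within tumors (r from 0.295 to 0.469) more than between them (-0.391 to 0.122). No library was a copy of another (the smallest chi-square between 2 libraries was 49.4 per degree of freedom). Total counts of 16259854 to 27707651 per library set the counting error, and each tumor had 1 biopsy per time. With the tumor as a block, p-values measure how unevenly the 3 tumors of 2 dogs changed over time. That spread comes from all 9 mammary libraries, which include a later biopsy of each tumor. Both tumors of dog CL count as separate blocks.

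In edgeR 4.0.16 (R 4.3.3), filterByExpr with a minimum count of 10 left 19975 genes, and TMM, glmQLFit with robust estimation and glmQLFTest were run with tumor and time as factors over all 9 mammary libraries, with 4 residual degrees of freedom and Benjamini-Hochberg adjustment at 0.05. The standard error of a fold change is its size divided by the root of its F statistic. Changes within a tumor are differences of log2 CPM with a prior count of 2. The difference between dogs was fitted as an interaction, with 2 residual degrees of freedom. DESeq2 1.42.0 and the other alternatives are given in the closing section, and the fits were tested on simulated data. Counts per list without CL caudal and with the offsets were added after seeing the data. The offsets come from a smooth fit of each library on gene length and on the number of genes within 500000 bases on each side.

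The tumors compared and the 43 gene lists were chosen with earlier results of these data known. Named genes are, among genes with a symbol not beginning with LOC that differ by at least 1 on the log2 scale and in 1 direction in every tumor, the 12 of smallest p-value and the 5 of highest mean CPM in each direction, then the 3 of smallest p-value on each list and the 3 in each direction for the difference between dogs. Genes said to be named after their values were seen lie outside that rule. Some genes that the rule selects are not reported here. Figures were drawn with matplotlib 3.10.9 in Python 3.11.15.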

Additional observations from a re-analysis of the deposited data

Results flagged for a closer look

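In 6 of 43 gene lists both tumors of dog CL moved one way and the tumor of dog BM the other, by the list medians. How often lists of other genes would do so was not counted. With 1 tumor of BM, the difference between the dogs was not tested for these lists, and the gene-level test across all genes called 0 genes. Hypoxia and glycolysis genes had a median change of -0.91 in BM, against 0.23 in CL cranial and 1.28 in CL caudal. Oxidative phosphorylation genes were at 0.50 in BM, against -0.48 and -1.32 in the CL tumors, and cytosolic ribosomal protein genes at 0.71, against -0.45 and -1.24. Mammary secretory genes were at 0.18 in BM, against -0.32 and -0.61. Neutrophil markers were at -0.44 in BM, against 3.45 and 0.22, and epidermal markers at -3.15, against 1.66 and 1.17. The summed level of neutrophil markers moved against these medians in BM, from 956 to 1295 CPM, and in CL caudal, from 1926 to 532 CPM. The offsets brought the CL caudal median of neutrophil markers to -0.35 and that of epidermal markers to -0.09, on the same side as BM.

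Among the single genes 12 of 166 moved in opposite directions in the dogs, and the share over all genes was not counted. Of the 12, 6 were named for having the smallest p-values for the difference between dogs, a choice that favors opposite directions. For that difference the smallest adjusted p in edgeR's test was 0.469. In BM the changes were 5.78 for LRRC17, 3.47 for ZBTB16 and 3.68 for S100B, all of which were below 0 in both CL tumors. They were -2.74 for IFITM10, -8.09 for DSG1 and -4.67 for COL11A2, all of which were above 0 in both CL tumors. The other genes sat close to 0 in BM. CDKN1A was at -0.030 and PADI4, an enzyme of neutrophils, at -0.41 in BM, and both were above 1 in both CL tumors. The respiratory chain gene NDUFA4 was at 0.15 and the ribosomal protein genes RPL30, RPL15 and RPS16 at 0.00094, 0.15 and 0.11 in BM, and all of them were below 0 in both CL tumors.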

How the results depend on the processing

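Of 1913 fold changes of named genes under the alternatives, 1905 kept their direction, and 10 of the list medians moved by more than the SD between tumors. Of 160 named genes, DESeq2 called 58, and the fit without a filter 19. Named genes were chosen by their values in these same libraries, which favors kept directions and calls among them. Over all genes, called genes numbered 0 in every alternative edgeR fit but the one without a filter on low counts. That fit called 29 of 34033 genes, and DESeq2 called 231 of 19975. For the difference between dogs these were 246 and 261. At an unadjusted p under 0.05, in place of 1002 higher and 299 lower genes, counts fell with the CL tumors summed (652 and 199), and lower genes numbered 161 with the dog as block, 562 with all 13 libraries, 562 with the offsets and 637 in DESeq2. Leaving out each tumor in turn gave 785 to 957 higher and 187 (without CL caudal) to 658 (without BM) lower. Genes at least doubled or halved in all tumors numbered 332 and 154 with the offsets, and 994 to 1460 and 351 to 695 with only 2 tumors, which is a weaker condition. These were filtered and scaled anew without the third tumor, so that without CL caudal 1460 and 573 of 21728 genes met it, against 1324 and 510 of the 19975 genes of the report.

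The tumor block pairs biopsies of the same mass. Without the block, 545 genes were higher and 134 lower at an unadjusted p under 0.05, and no gene was called. KRT8 and MKI67 depend on CL caudal. Without the block the log2 fold changes were -0.54 for KRT8 and -0.68 for MKI67, against 0.53 and 0.17 with it. With the dog as block they were -0.53 and -0.35, and with the CL tumors summed -0.55 and -0.65. Leaving out 1 tumor gave -0.72 (without CL caudal) to 1.46 (without BM) for KRT8 and -1.04 (without CL caudal) to 1.21 (without CL cranial) for MKI67. The cause was not tested. Depth limits the genes under 1 CPM, and 3 tumors of 2 dogs limit every p-value.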

Other observations

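GPBAR1, which encodes a receptor for bile acids on the cell surface, was named after its values were seen, because IMAX carries a bile acid conjugate. It stood at 0.612 CPM, 0 and 0.527 CPM at day 0 in CL cranial, CL caudal and BM, and at 3.83, 1.67 and 3.14 CPM at 1 week. Levels at 1 week were above all day 0 levels, and the log2 fold change was 3.51 ± 1.06 with an adjusted p of 0.603 in edgeR's test. The gene is expressed in macrophages, whose markers were higher in the same biopsies, and the part of those cells in the value was not tested.

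Several less known genes were also at least quadrupled in all 3 tumors, and are named here after their values were seen. SLC49A3, a member of a transporter family, went from 5.00, 0.629 and 4.80 CPM to 29.5, 17.0 and 35.7 CPM. SLAMF8, a receptor of myeloid cells, went from 2.35, 0.315 and 3.19 CPM to 16.7, 2.96 and 19.8 CPM. WFIKKN2, a secreted protease inhibitor that binds myostatin, went from 0.357 CPM, 0 and 0.761 CPM to 4.89, 0.472 and 14.4 CPM. STAB2, a scavenger receptor of sinusoidal endothelium, went from 0.051 CPM, 0 and 0.673 CPM to 1.79, 0.429 and 4.75 CPM, so its day 0 levels rest on few reads.

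Many of the genes that moved alike lie outside the lists. Of the 545 genes at least doubled in all 3 tumors, 93 were on a list, and of the 83 at least halved, 3 were. CRYM, a thyroid hormone binding protein, was lower in each tumor, from 12.5, 488 and 83.2 CPM to 4.72, 175 and 3.29 CPM, and like the other genes described here it was chosen after its values were seen. In each tumor, sets of genes also moved against the others. In CL caudal, 169 of the 19975 genes were at least halved while at least doubled in both other tumors. The reverse held for 171 genes. The same counts were 163 and 55 in BM, and 64 and 90 in CL cranial.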
